A study of Homo sapiens with 6 samples.

Results

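The genes described here encode 9 chaperones and folding factors of the endoplasmic reticulum (ER): HSPA5, HYOU1, DNAJC3, SDF2L1, HSP90B1, PDIA4, MANF, CRELD2 and SEL1L. They were chosen by name, as genes of the kind switched on by the ER stress factors ATF6 and XBP1. The choice was made with earlier results of these data known. All 9 are rows of a deposited table of 4101 genes. RNA was sequenced from SH-SY5Y cells, an established human neuroblastoma line used as a dopaminergic cell model, which the labels give as wild type. Each group has 3 libraries. The METH-treatment group received methamphetamine, a psychostimulant, at 2 mM for 24 h, and the PBS-treatment group received PBS (0 mM) over the same 24 h. The METH libraries are called METH 1, METH 2 and METH 3, and the PBS libraries PBS 10, PBS 11 and PBS 12 after the headings of their columns.

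Proteins that enter the ER are folded, glycosylated and cross-linked by disulfide bonds there before they move on to the Golgi. When unfolded proteins build up, the sensors ATF6, IRE1 (gene ERN1) and PERK (gene EIF2AK3) start the unfolded protein response. ATF6 is cut in the Golgi and its fragment enters the nucleus, IRE1 splices the messenger of XBP1, and both factors raise the transcription of chaperones and of the machinery that removes misfolded proteins. PERK slows translation and raises ATF4.

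The values are reads scaled to a common library size (CPM, with no correction for gene length). The steps of the values put the libraries at between 85.7 and 110.8 M reads. The genes of the table took 19.3% of the reads of METH 3 and 23.0% to 24.3% of those of each other library. Each gene of the table carries the authors' mark as changed between these same libraries, so that the members were present only because they met that selection, and other genes were not analysed here. For this reason counts of members are read against the share of the whole table that meets the same criterion. The p-values and their adjustment were computed within these selected genes, so they do not carry their stated error rate. Of the noradrenergic neuroblast markers, 6 of 14 were in the table, with a summed level of 798 to 850 CPM with PBS and 746 to 867 CPM with METH, none at 0 in any library, and limma called 1 higher and 4 lower. Of the markers of the mesenchymal state that neuroblastoma cultures can also hold, 4 of 13 were in the table, with a summed level of 277 to 483 CPM with PBS and 547 to 814 CPM with METH, none at 0, and limma called 3 higher and 0 lower. In the whole table it called 33.3% of the genes higher and 35.8% lower. The part of this difference in the results below was not tested, and in bulk RNA fewer cells of a kind and less RNA per cell cannot be told apart.

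ATF6 binds the ER stress element (ERSE), a CCAAT box that carries the factor NF-Y followed after a spacer by CCACG. A shorter form, ERSE-II, has the same boxes in another arrangement, and the unfolded protein response element (UPRE) is bound by XBP1 and ATF6. The RefSeq promoter window of each gene (GRCh38.p14, 250 bases before to 50 bases after the annotated start) were searched on both strands for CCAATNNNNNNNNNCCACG (ERSE), for ATTGG followed by any 1 base and CCACG (ERSE-II) and for TGACGTGG (UPRE). All 9 members had a window, and PDIA4 had 2. The sites are shown because 5 of the 9 members carry an element that is rare among promoters. Capitals mark the fixed letters of the element, the sequences run 5′ to 3′ on the strand of the gene, and a site on the reverse strand reads as the reverse complement.

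HSPA5 ERSE, chr9:125241385-125241414, minus strand: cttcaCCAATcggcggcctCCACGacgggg
HSP90B1 upstream ERSE, chr12:103930211-103930240, plus strand: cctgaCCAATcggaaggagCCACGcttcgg
HSP90B1 downstream ERSE in reverse, chr12:103930316-103930345, plus strand: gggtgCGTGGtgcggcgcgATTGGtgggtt
CRELD2 ERSE in reverse, chr22:49918549-49918578, plus strand: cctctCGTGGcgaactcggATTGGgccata
HYOU1 upstream ERSE-II in reverse, chr11:119057370-119057399, minus strand: gccccgtgaCGTGGtCCAATcccaggccga
HYOU1 downstream ERSE-II in reverse, chr11:119057264-119057293, minus strand: ggcctgggaCGTGGtCCAATgagtacgcgc
SDF2L1 ERSE-II in reverse, chr22:21642105-21642134, plus strand: cctcggaagCGTGGaCCAATcaaaaccctc

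An ERSE was found in the windows of 3 members, HSPA5, HSP90B1 and CRELD2, and in 27 of all 35116 promoter windows (0.0769%). ERSE-II was found in HYOU1 and SDF2L1 and in 19 of the 35116 windows (0.0541%). The UPRE was found in HYOU1 alone among the members, where it shares bases with the upstream ERSE-II, and in 256 windows (0.729%). The core CCACG was in the windows of all 9 members, but also in 38.1% of all windows. The element lay between bases -66 and -48 from the start of HSPA5, -80 and -62 in CRELD2, -89 and -71 for the downstream site of HSP90B1, and -79 and -69 for that of HYOU1. The RefSeq starts of HSP90B1, PDIA4, SDF2L1, MANF, CRELD2 and SEL1L lie inside the longer gene models of GENCODE used for positions below, so the sites shown for HSP90B1 and CRELD2 fall within the gene coordinates given there. The exact letters were not found in the windows of PDIA4, DNAJC3, MANF and SEL1L. The members were picked as ATF6 and XBP1 type genes, so the presence of these elements is a description of the group and was not tested.

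**Figure D1:**
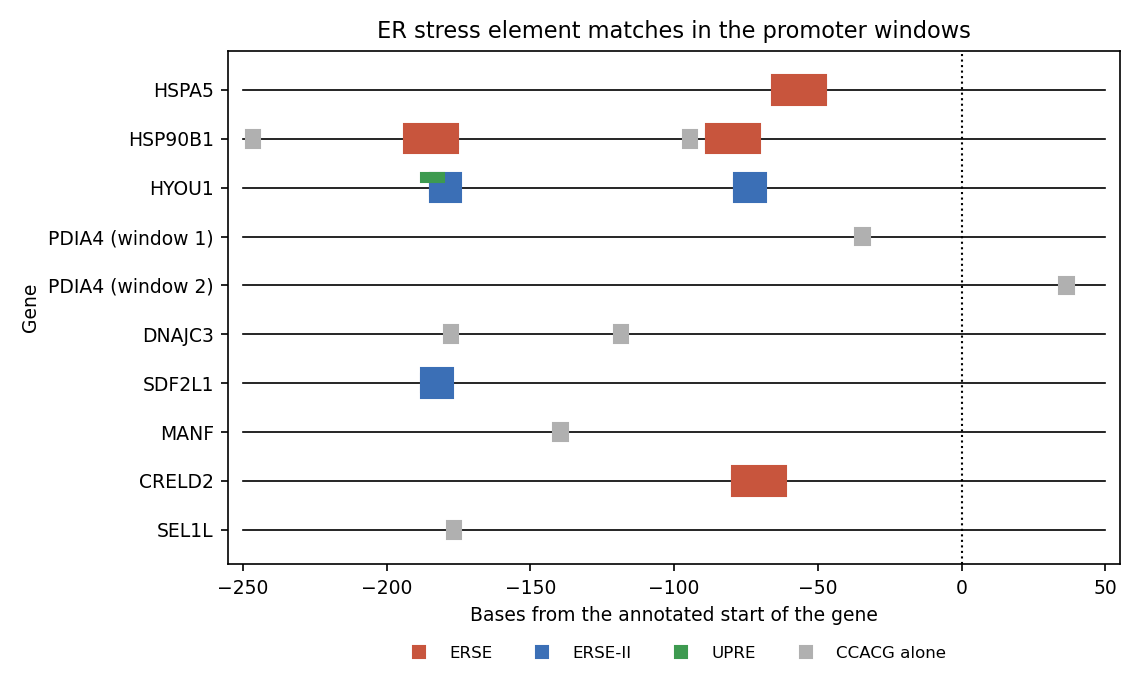
Matches to the ERSE, ERSE-II, UPRE and core CCACG letters in the promoter window of each member, plotted by distance in bases from the annotated start of the gene (dotted line). HSPA5, HSP90B1, HYOU1, SDF2L1 and CRELD2 hold an ERSE or ERSE-II, and the window of HYOU1 holds 2 ERSE-II sites.

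The mean of every one of the 9 genes was lower in the METH-treatment group than in the PBS-treatment group, and 5 of them, HSPA5, HSP90B1, PDIA4, MANF and CRELD2, fell past the threshold (limma adjusted p under 0.1). Across the table the same test called 35.8% of the genes lower and 33.3% higher, and 49.6% of the genes had a negative log2 fold change. None of the 9 was called higher by limma, edgeR or DESeq2, and none was higher at an unadjusted p under 0.05 in these 3 tests. The tests used the same libraries by which the authors had selected the genes of the table with DESeq2. The median log2 fold change of the 9 was -0.67, beside 0.11 for all genes of the table, and single members ranged from -1.03 (CRELD2) to -0.22 (SEL1L). These comparisons describe a list chosen with earlier results of these data known, and are not a test of it. Together the 9 genes took 813 to 1695 CPM in the PBS libraries and 599 to 860 CPM in the METH libraries, with PBS 10 at 813 CPM below METH 1 and METH 2.

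**Figure D2:**
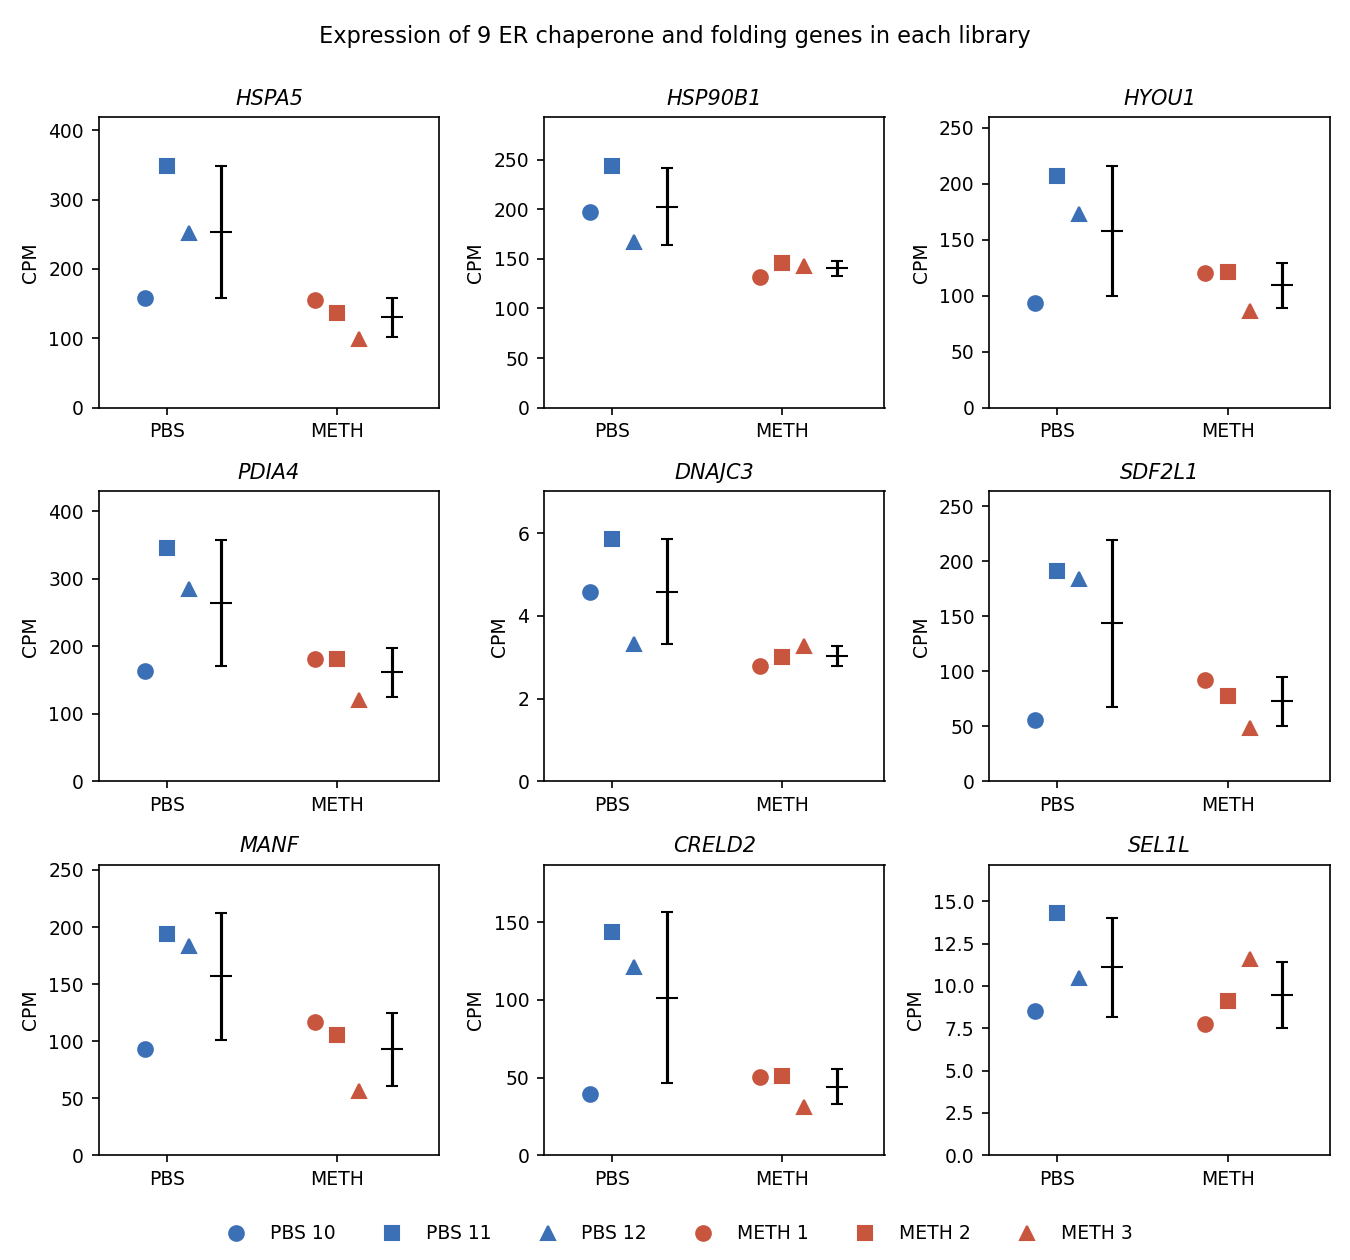
CPM of each member in the 6 libraries (blue PBS, red METH), with the mean and SD of each group in black and axes that start at 0. PBS 10 lies far below PBS 11 and PBS 12 in HYOU1, PDIA4, SDF2L1, MANF and CRELD2, and below every METH library but METH 3.

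HSPA5 encodes BiP, the HSP70 of the ER lumen, which binds unfolded chains and also holds the stress sensors inactive. HSPA5 (ENSG00000044574, chromosome 9, 125234853 to 125241330 of GENCODE release 29 on GRCh38, minus strand) was at 158, 349 and 252 CPM in PBS 10, PBS 11 and PBS 12, and at 155, 137 and 99.6 CPM in METH 1, METH 2 and METH 3. The groups did not overlap, but PBS 10 lay close to METH 1, and PBS 11 was the highest library. The gene fell by the limma test, with a PBS mean of 253 ± 95.7 CPM, a METH mean of 131 ± 28.4 CPM (SD, n = 3 each), a difference of -0.90 on the log2 scale, a standard error of 0.313 and an adjusted p of 0.0493. Its ERSE, shown above, lies closest to the start of the gene among the ERSE and ERSE-II sites found.

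HYOU1 is a large relative of BiP that exchanges its nucleotide and holds unfolded chains itself. HYOU1 (ENSG00000149428, chromosome 11, 119044189 to 119057202, minus strand) was at 93.7, 207 and 173 CPM in PBS 10, PBS 11 and PBS 12 and at 120, 121 and 86.3 CPM in METH 1, METH 2 and METH 3. The groups overlapped, since PBS 10 lay below METH 1 and METH 2. On the log2 scale METH minus PBS was -0.48, with a 95% interval from -1.17 to 0.22 and an adjusted p of 0.175 by limma, and it was not past the threshold. An antisense RNA gene, AP003392.3, shares 8.66% of its exonic bases on the other strand, and reads of both cannot be told apart if the counting did not use strand.

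DNAJC3 is a co-chaperone that delivers clients to BiP and was first known as an inhibitor of PERK and of the related kinase PKR. DNAJC3 (ENSG00000102580, chromosome 13, 95677139 to 95794989, plus strand) was at 4.59, 5.85 and 3.33 CPM in PBS 10, PBS 11 and PBS 12 and at 2.80, 3.00 and 3.28 CPM in METH 1, METH 2 and METH 3. Every METH library lay below every PBS library, with PBS 12 close to METH 3. On the log2 scale METH minus PBS was -0.55, with a 95% interval from -1.18 to 0.08 and an adjusted p of 0.109 by limma. DNAJC3 was the only member whose groups did not overlap and which was not called, and its values rest on 240 to 509 reads per library.

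SDF2L1 works with a J-domain co-chaperone to keep BiP clients from aggregating. SDF2L1 (ENSG00000128228, chromosome 22, 21642261 to 21644298, plus strand) was at 56.1, 191 and 184 CPM in PBS 10, PBS 11 and PBS 12 and at 92.4, 77.4 and 48.7 CPM in METH 1, METH 2 and METH 3. PBS 11 and PBS 12 stood above all METH libraries, while PBS 10 was below METH 1 and METH 2. On the log2 scale METH minus PBS was -0.83, with a 95% interval from -1.86 to 0.20 and an adjusted p of 0.128 by limma. PBS 11 was 3.40 times PBS 10, a spread within the controls that only CRELD2 exceeded among the members.

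HSP90B1 encodes the HSP90 of the ER, a chaperone for integrins, Toll-like receptors and growth factors. HSP90B1 (ENSG00000166598, chromosome 12, 103930107 to 103953645, plus strand) was at 197, 244 and 167 CPM in PBS 10, PBS 11 and PBS 12 and at 132, 146 and 143 CPM in METH 1, METH 2 and METH 3. The groups did not overlap, and the METH libraries lay within 1.10 times of each other. The gene fell by the limma test, with a PBS mean of 203 ± 39.0 CPM, a METH mean of 141 ± 7.19 CPM (SD, n = 3 each), a difference of -0.51 on the log2 scale, a standard error of 0.215 and an adjusted p of 0.0748. C12orf73 and TTC41P on the other strand and MIR3652 on the same strand each share at most 2.79% of its exonic bases.

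PDIA4 is a disulfide isomerase, which forms and reshuffles disulfide bonds in new proteins. PDIA4 (ENSG00000155660, chromosome 7, 149003062 to 149028641, minus strand) was at 163, 346 and 285 CPM in PBS 10, PBS 11 and PBS 12 and at 182, 182 and 120 CPM in METH 1, METH 2 and METH 3. The groups overlapped through PBS 10, which was below METH 1 and METH 2. The gene fell by the limma test, with a PBS mean of 265 ± 93.3 CPM, a METH mean of 161 ± 36.0 CPM (SD, n = 3 each), a difference of -0.67 on the log2 scale, a standard error of 0.315 and an adjusted p of 0.0933. The 95% interval, which is not adjusted, ran from -1.38 to 0.04.

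MANF and CRELD2 are small soluble proteins of the ER that are released under stress. MANF, named as a neurotrophic factor of dopamine neurons, binds BiP and slows its release of nucleotide. MANF (ENSG00000145050, chromosome 3, 51385047 to 51389397, plus strand) was at 93.2, 194 and 183 CPM in PBS 10, PBS 11 and PBS 12 and at 117, 105 and 56.2 CPM in METH 1, METH 2 and METH 3. The groups overlapped through PBS 10, and METH 3 was the lowest of the 6 libraries. The gene fell by the limma test, with a PBS mean of 157 ± 55.1 CPM, a METH mean of 92.7 ± 32.2 CPM (SD, n = 3 each), a difference of -0.75 on the log2 scale, a standard error of 0.359 and an adjusted p of 0.0961, with an unadjusted 95% interval from -1.56 to 0.06.

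CRELD2 (ENSG00000184164, chromosome 22, 49918167 to 49927540, plus strand) was at 39.4, 144 and 121 CPM in PBS 10, PBS 11 and PBS 12 and at 50.6, 51.0 and 31.1 CPM in METH 1, METH 2 and METH 3. PBS 10 was below METH 1 and METH 2, while PBS 11 and PBS 12 were far above all METH libraries. The gene fell by the limma test, with a PBS mean of 101 ± 54.8 CPM, a METH mean of 44.3 ± 11.4 CPM (SD, n = 3 each), a difference of -1.03 on the log2 scale, a standard error of 0.450 and an adjusted p of 0.0810. This was the largest change of the 9 in this fit, with a standard error nearly as large as that of SDF2L1 (0.458). The gene ALG12 shares 3.25% of its exonic bases on the other strand.

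SEL1L holds the ubiquitin ligase SYVN1 in the ER membrane, where misfolded proteins are sent back to the cytosol for degradation. SEL1L (ENSG00000071537, chromosome 14, 81471549 to 81533861, minus strand) was at 8.51, 14.3 and 10.5 CPM in PBS 10, PBS 11 and PBS 12 and at 7.73, 9.09 and 11.6 CPM in METH 1, METH 2 and METH 3. The groups were mixed, with METH 3 second only to PBS 11. On the log2 scale METH minus PBS was -0.22, with a 95% interval from -0.82 to 0.38 and an adjusted p of 0.446 by limma, so the difference was no larger than the spread of the libraries.

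With 3 libraries against 3, the exact 2-sided permutation test has 0.1 as its lowest possible p-value. It was reached by HSPA5, HSP90B1 and DNAJC3. For HYOU1, PDIA4, SDF2L1, MANF and CRELD2 the exact permutation p was 0.3, and for SEL1L it was 0.5. Every METH library was below every PBS library in 3 of the 9 members, beside 33.0% of the genes of the table.

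Per kilobase of exon, which allows levels to be compared between genes, the PBS mean was highest for SDF2L1 at 131 ± 69.1 CPM per kb (SD, n = 3). PDIA4 followed at 80.8 ± 28.5, MANF at 65.7 ± 23.1, HSPA5 at 64.8 ± 24.5 and HSP90B1 at 43.2 ± 8.30 CPM per kb. Each of these overlapped its neighbour in the order within 1 SD. HYOU1 at 20.5 ± 7.55 and CRELD2 at 19.6 ± 10.6 CPM per kb did not differ beyond their spread but lay below HSP90B1. SEL1L at 1.16 ± 0.308 and DNAJC3 at 0.821 ± 0.226 CPM per kb were the lowest and overlapped each other. In the METH-treatment group SDF2L1 was again the highest, at 66.3 ± 20.2 CPM per kb, and DNAJC3 the lowest, at 0.542 ± 0.0431 CPM per kb. All annotated exons were counted in the length, so the level is understated for a gene whose long exons are not used.

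The libraries of a group did not vary alike in all members. In HSPA5, HYOU1, PDIA4, SDF2L1, MANF and CRELD2, PBS 10 was the lowest of the PBS libraries and METH 3 the lowest of all 6. PBS 10 was the lowest PBS library in 44.7% of the genes of the table, and METH 3 the lowest of the 6 libraries in 18.6%. PBS 11 was the highest PBS library in all 9 members, beside 41.8% of the table and 31 of the 42 other ER genes of the table described below. In HSP90B1 and DNAJC3, by contrast, PBS 12 was the lowest PBS library and METH 1 the lowest METH library.

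Over the 6 libraries, with the mean of each group removed, the log2 values of those 6 genes had pairwise correlations of 0.92 to 1.00 (Pearson's r, 15 pairs). HSP90B1 and DNAJC3 had an r of 0.97 with each other. Between the 6 genes and HSP90B1, DNAJC3 or SEL1L, r was from -0.19 to 0.43 (18 pairs). The grouping was made after these values were seen, and the points of each pair share the same 6 libraries and their depth, so these correlations are a description. The SD of the log2 values among the PBS libraries was 1.00 for SDF2L1 and 1.01 for CRELD2 but 0.27 for HSP90B1. Its median over the 9 members was 0.58 with PBS and 0.33 with METH, beside 0.37 and 0.25 for the 3625 genes whose mean reached 1 CPM.

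**Figure D3:**
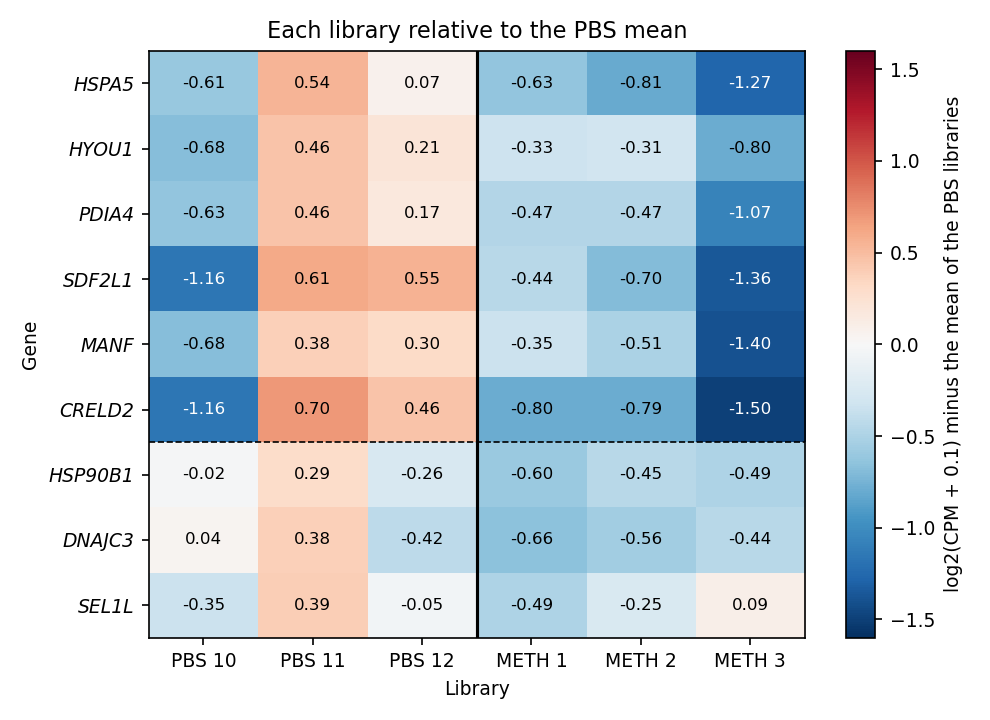
log2(CPM + 0.1) of each library minus the mean of the PBS libraries, by gene (rows) and library (columns), with blue below and red above that mean. Above the dashed line PBS 10 ranges from -1.16 to -0.61, while HSP90B1 and DNAJC3 have it at -0.02 and 0.04.

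The calls depended on which libraries entered. Without PBS 10, 7 of the 9 members were called lower by limma, beside 30.1% of the table, with HYOU1 at a log2 fold change of -0.81 (adjusted p = 0.0296) and SDF2L1 at -1.41 (adjusted p = 0.0108) added. CRELD2 then had a log2 fold change of -1.61 (adjusted p = 0.00630), the median of the 9 was -0.99, and in 8 of the 9 every METH library lay below every PBS library, beside 38.0% of the table. In the other 5 fits this held for 3 of the 9, beside 37.5% of the table without PBS 11, 36.1% without PBS 12, 36.2% without METH 1, 35.1% without METH 2 and 38.5% without METH 3. Without PBS 11 limma called 1 member, HSPA5 (33.4% of the table), with none at an unadjusted p under 0.05. Without PBS 12 it called 2, HSP90B1 and DNAJC3 (20.8%), and without METH 1 it called 1, HSPA5 (15.3%), with 2 at an unadjusted p under 0.05 in each fit. Without METH 2 no member was called by limma (13.7% of the table), with 1 lower at an unadjusted p under 0.05. Without METH 3 no member was called either (27.9% of the table), and none had an unadjusted p under 0.05. Leaving out a library also leaves fewer samples to the test. Of the members called with all libraries, MANF was at -0.43 without METH 3 (limma adjusted p = 0.265), PDIA4 at -0.44 without PBS 11 (limma adjusted p = 0.214) and CRELD2 at -0.68 without PBS 11 (limma adjusted p = 0.199). Of those not called with all libraries, HYOU1 was at -0.24 without PBS 11 (limma adjusted p = 0.462). SDF2L1 was at -0.53 (limma adjusted p = 0.327) and DNAJC3 at -0.36 (limma adjusted p = 0.255) without PBS 11. In each of these 6 fits all 9 log2 fold changes were negative, but those of SEL1L reached -0.02.

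**Figure D4:**
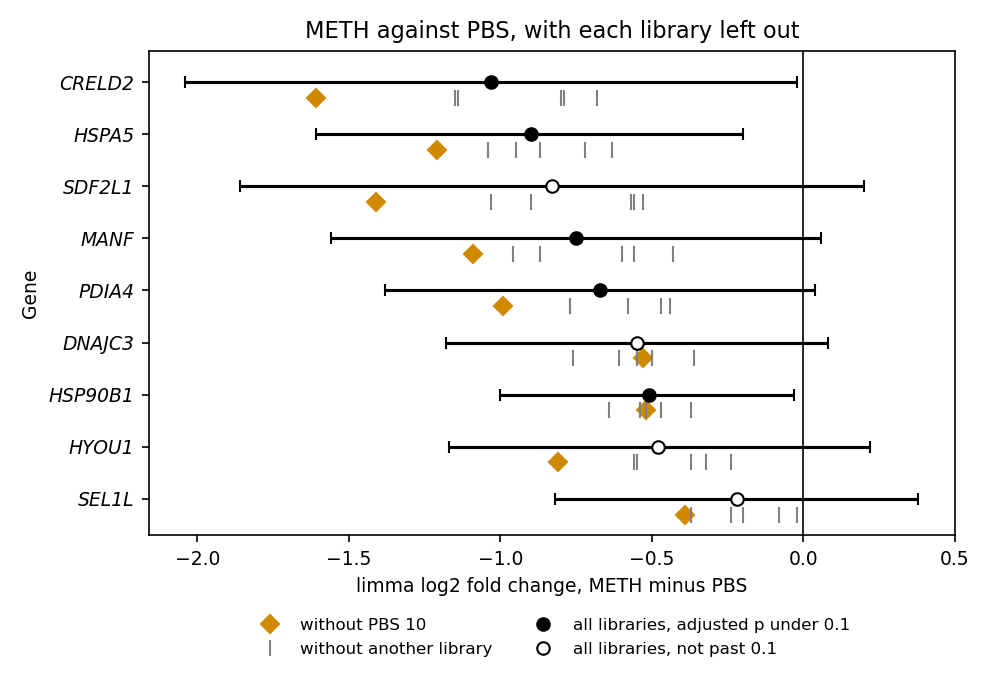
limma log2 fold change of METH against PBS for each member with its unadjusted 95% interval (filled where the adjusted p-value was under 0.1), and the value without each library below it. The diamonds, without PBS 10, lie furthest from 0 in every gene but HSP90B1 and DNAJC3.

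On the reads recovered from the values, the count tests called more members. The authors had selected the genes of the table by DESeq2 on these same libraries. The count tests therefore partly repeat that selection and are not separate evidence. edgeR called 8 of the 9 lower, beside 39.9% of the table, and DESeq2 also called 8, beside 40.3%. The exception in both was SEL1L. With the limma p-values adjusted as if 20000 genes had been tested, none of the 9 was past the threshold, beside 4.66% of the table, while 3 members had an unadjusted p under 0.05. The adjusted p-value of HSPA5 was then 0.240. Without a trend limma called 2 members, HSPA5 and HSP90B1, beside 33.8% of the table, and at a threshold of 0.05 it called 1, HSPA5, beside 19.1%. With the libraries scaled to the same median ratio it called 7, beside 38.2% of the table, with DNAJC3 and SDF2L1 added. After that scaling 2 of the 9, HSPA5 and HSP90B1, had no overlap between the groups, beside 32.6% of the table. The scaling here, in edgeR and in DESeq2 was estimated from the genes of the table alone, all marked as changed. Such scaling assumes that most genes are unchanged.

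The other genes of the ER and of the early secretory pathway were examined in the same fit. Of 210 such genes in 9 lists, 42 were in the table, and limma called 21 of them higher and 6 lower with METH, beside 33.3% and 35.8% of the table. These shares also stand behind the counts of the single lists below, most of which hold few genes. Their median log2 fold change was 0.53. In 16 of the 42 all METH libraries lay above all PBS libraries, beside 31.0% of the table, and in 4 all lay below, beside 33.0%. PBS 10 was the lowest PBS library in 29 of the 42, including 15 of the 21 called higher. Without PBS 10 the calls were 9 higher and 7 lower, beside 24.8% and 30.1% of the table. The count of higher calls was 31 without PBS 11 (37.8% of the table), 19 without METH 3 (32.4%), 7 without PBS 12 (18.2%), 3 without METH 1 (12.0%) and 3 without METH 2 (10.0%). With all libraries it was 22 after scaling to the same median ratio (33.2% of the table), 20 with DESeq2 (32.7%) and 14 with edgeR (28.4%). It was 12 by limma without a trend (29.8%), 6 at a threshold of 0.05 (17.0%) and 1 with the adjustment over 20000 genes (5.34%).

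**Figure D5:**
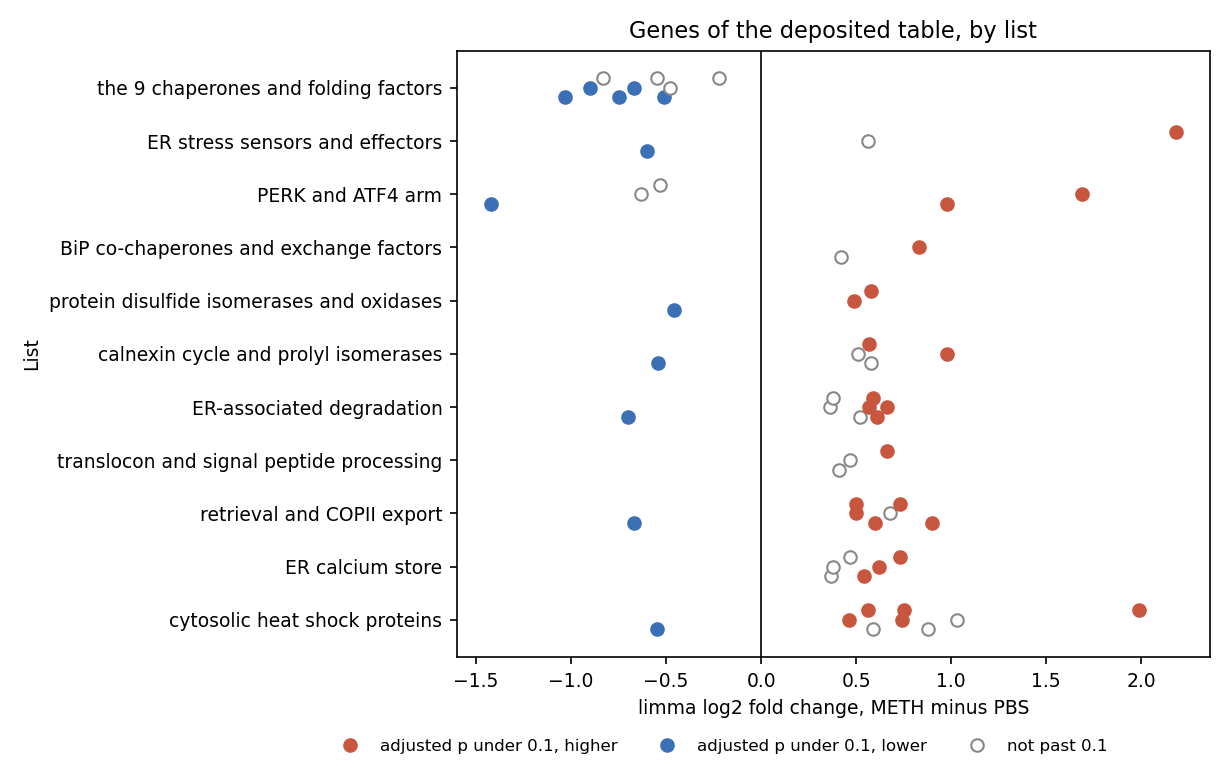
limma log2 fold change (METH minus PBS, horizontal axis) of each gene of the table in the 9 members and in 10 lists, filled where the adjusted p-value was under 0.1. All members lie left of 0, while most genes of the other lists lie right of it.

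Of the genes named from these lists below and called higher or lower, CREB3L4, PPP1R15A, DNAJC1, MOGS, TMUB2, KDELR3, ERGIC3 and NUCB2 had groups that overlapped. Without PBS 10, the genes PPP1R15A, DNAJC1, ERP44, QSOX1, MOGS, EDEM2, TMUB2, KDELR3, ERGIC3 and NUCB2 were no longer past the threshold, with limma adjusted p-values from 0.103 (NUCB2) to 0.276 (ERGIC3). In that fit the log2 fold changes of ERP44 (0.48) and NUCB2 (0.71) were at least about as large as with all libraries. Those of the others were smaller: PPP1R15A 0.46, DNAJC1 0.55, QSOX1 0.32, MOGS 0.34, EDEM2 0.42, TMUB2 0.37, KDELR3 0.61 and ERGIC3 0.35.

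Among the stress sensors and effectors, of which 3 of 12 were in the table, only EIF2AK3, the gene of PERK, was called higher. It was at 7.24, 5.01 and 3.53 CPM in PBS 10, PBS 11 and PBS 12 and at 22.1, 26.4 and 21.5 CPM in METH 1, METH 2 and METH 3, which is 2.18 higher on the log2 scale with a standard error of 0.280 and an adjusted p of 0.00371 by limma. CREB3L4, a membrane-bound relative of ATF6, fell (log2 fold change -0.60, limma adjusted p = 0.0870), and CREB3, another, was at 0.56 (limma adjusted p = 0.161). Of the PERK and ATF4 arm, 5 of 14 genes were in the table, with 2 called higher and 1 lower and a median log2 fold change of -0.53. Without PBS 10 this became 1 higher and 3 lower, with TRIB3 (-1.23, limma adjusted p = 0.0299) and ASNS (-0.78, limma adjusted p = 0.0883) added to the lower calls. ATF3, a stress-induced factor, was 1.69 higher on the log2 scale (limma adjusted p = 0.0269), and PPP1R15A, which lifts the block of translation, 0.98 higher (limma adjusted p = 0.0964). ATF5, whose translation rises under stress, fell (-1.42, limma adjusted p = 0.0103), with means of 22.0 ± 6.02 CPM in PBS and 7.99 ± 1.18 CPM in METH. The sensors thus had 1 gene called in each direction among the 3 in the table.

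Among the folding partners of the 9 proteins, the lists held few genes of the table. DNAJC1, a membrane co-chaperone of BiP, rose (log2 fold change 0.83, limma adjusted p = 0.0572), and TMEM132A, a protein that binds BiP, was at 0.42 (limma adjusted p = 0.147). Of the disulfide isomerases and oxidases, 3 of 29 were in the table: ERP44 (0.49, limma adjusted p = 0.0860) and QSOX1 (0.58, limma adjusted p = 0.0830) rose, and QSOX2 fell (-0.46, limma adjusted p = 0.0822). In the calnexin cycle and among prolyl isomerases, 2 of 5 rose and 1 fell. PPIC, a prolyl isomerase, rose (0.98, limma adjusted p = 0.0289), with means of 8.43 ± 3.07 CPM in PBS and 16.1 ± 0.630 CPM in METH (SD, n = 3 each). MOGS, the first glucosidase to trim new glycans, was 0.57 higher on the log2 scale (limma adjusted p = 0.0870) and PRKCSH, a subunit of the next, was at 0.58 (limma adjusted p = 0.150). Without PBS 10, PPIC (limma adjusted p = 0.0436) and CLGN (limma adjusted p = 0.0800) of this list were called higher and none was called lower.

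In ER-associated degradation, the pathway of SEL1L, 4 of 8 genes rose and 1 fell. EDEM2, which trims mannose from misfolded glycoproteins, was 0.66 higher on the log2 scale (limma adjusted p = 0.0620) and TMUB2 0.61 higher (limma adjusted p = 0.0762). UBE2G2, a ubiquitin-conjugating enzyme of this pathway, fell (-0.70, limma adjusted p = 0.0339), with means of 73.5 ± 14.5 CPM in PBS and 44.7 ± 1.66 CPM in METH. Among genes of the translocon and signal peptide processing, 1 of 3 rose, DAD1, a subunit of the oligosaccharyltransferase (0.66, limma adjusted p = 0.0420), while OST4 was at 0.47 (limma adjusted p = 0.161) and SEC11A at 0.41 (limma adjusted p = 0.140).

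In retrieval and export, 5 of 7 genes rose and 1 fell. KDELR3, a receptor that returns escaped ER proteins such as BiP from the Golgi, was 0.90 higher on the log2 scale (limma adjusted p = 0.0776), ERGIC3 0.73 higher (limma adjusted p = 0.0984), and TMED3 was at 0.68 (limma adjusted p = 0.101). Without PBS 10, only SEC24D (limma adjusted p = 0.0524) and SAR1A (limma adjusted p = 0.0313) of this list were still called higher. SEC16A was still called lower (limma adjusted p = 0.0392). Of the genes of the ER calcium store, 3 of 6 rose, among them the calcium sensor STIM1 (0.73, limma adjusted p = 0.0440), NUCB2 (0.62, limma adjusted p = 0.0985) and the leak channel TMCO1 (0.54, limma adjusted p = 0.0490). Of the cytosolic heat shock proteins, which act outside the ER, 5 of 9 rose and 1 fell. HSPB7 was 1.99 higher on the log2 scale (limma adjusted p = 0.0237), while HSPA1A (1.03, limma adjusted p = 0.151) and DNAJB1 (0.88, limma adjusted p = 0.138) were not past the threshold, with PBS 10 at 119 and 72.2 CPM and PBS 11 at 826 and 343 CPM. Without PBS 10, only HSPB7 (limma adjusted p = 0.0344) and DNAJB4 (limma adjusted p = 0.0492) of this list were still called higher. None was then called lower.

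The 5 genes of the table whose log2 values followed the mean standardised profile of the members most closely over the 6 libraries were SYTL1, AKNA, PEX11G, WASIR2 and WDR90, with Pearson's r from 0.990 to 0.999. Their PBS means ran from 2.86 CPM (PEX11G) to 13.6 CPM (WDR90). In all 5, METH 3 was the lowest library and PBS 10 the lowest of the PBS libraries. Among the members themselves r with this profile, which they form, was from 0.64 (SEL1L) to 0.98 (HSPA5).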

How the data were processed

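RNA of the 3 METH and 3 PBS libraries of SH-SY5Y cells was sequenced by the authors on the Illumina HiSeq platform. The authors deposited 1 table with a value per gene and library, headed FPKM, beside group means and the fold changes and p-values of their DESeq2 comparison, which were not used. Within each deposited column the values are whole multiples of 1 step (tolerance 0.00051; 1 value each in PBS 12 and METH 2 is not), whatever the gene, so the authors deposited CPM values, reads scaled to library size that ignore gene length, and reads were recovered from the steps. Time is labelled Day 0, but the treatment protocol gives 24 h. The aligner, the counting tool and the genome build are not given in the sources used here. The numbers of the PBS columns match no label, and those columns were assigned to the group only. The methods state triplicates without naming separate cultures, so p-values measure the spread between these libraries. They were computed only over genes already selected as changed between these libraries. A call at the threshold is therefore a description within that selection.

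log2(CPM + 0.1) was compared by limma 3.58.1 (R 4.3.3; lmFit, eBayes with a trend) over all 4101 genes, with Benjamini-Hochberg adjustment and a threshold of 0.1. Single genes were compared by exact permutation tests, 2-sided. Other settings tried were pseudocounts of 1 and 0.01, a filter at 1 CPM on the higher group mean, limma without a trend, libraries scaled by their median ratio, 0.05 as threshold, adjustment as if 20000 genes had been tested, edgeR 4.0.16 and DESeq2 1.42.0 on the recovered reads, and each library left out. The fits were tested on simulated data. Named genes were the 9 members, at most 3 genes of each list other than the marker lists, with the largest absolute log2 fold change and the same filter, and the 5 most alike in profile. TRIB3, ASNS, CLGN, SEC16A, SEC24D, SAR1A, DNAJB4 and the genes outside the members with an ERSE or ERSE-II were named after their values were seen. The members and lists were chosen with earlier results of these data known. Exonic lengths and positions are from GENCODE release 29, which held 4093 of the 4101 identifiers, and promoter windows from RefSeq. Python 3.11.15 with scipy 1.17.1 was used for the rest.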

Additional observations from a re-analysis of the deposited data

How the results depend on the processing

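The 9 members had negative log2 fold changes under every alternative run, and their median log2 fold change stayed between -0.99 and -0.44 over the fits that each left out a library. The count of members called lower, 5, was less stable. It was 2 when limma was run without a trend (33.8% of the table), 1 at a threshold of 0.05 (19.1%), 0 (with 3 at an unadjusted p under 0.05) when adjusted as if 20000 genes had been tested (4.66%), 8 with edgeR (39.9%) and 8 with DESeq2 (40.3%), 7 with the libraries scaled to the same median ratio (38.2%), and 0 to 7 with each library left out (13.7% to 33.4%). The cause of these differences was not tested. The counts of edgeR and DESeq2 partly repeat the authors' selection of the table, made by DESeq2 on these libraries. Members without overlap between the groups numbered 3 (33.0% of the table), 2 after scaling (32.6%), and 3 to 8 with each library left out (35.1% to 38.5%). Of the other ER genes, 21 called higher and 6 called lower (33.3% and 35.8% of the table) became 12 and 3 without a trend (29.8% and 33.8%), 6 and 3 at a threshold of 0.05 (17.0% and 19.1%), 1 and 1 with the adjustment over 20000 genes (5.34% and 4.66%), 22 and 6 after scaling (33.2% and 38.2%), 14 and 6 with edgeR (28.4% and 39.9%) and 20 and 8 with DESeq2 (32.7% and 40.3%), with ranges of 3 to 31 and 1 to 7 over the fits that each left out a library. That scaling moved the median of all genes from 0.11 to 0.08. No paired analysis was possible because the PBS columns carry the numbers 10 to 12 and the METH columns 1 to 3. The members had at least 240 reads in every library.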

Other observations

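Among all genes of the table, 11 had an ERSE or ERSE-II in a promoter window, 5 of them members. The other 6 are FICD and FRG2 with an ERSE and SHCBP1, CAMTA1, ZNF143 and NUCB1 with an ERSE-II. They were listed after the search, and limma called 2 of the 6 lower and 1 higher, with a median log2 fold change of 0.31. The 2799 genes of the table with a window and neither element had a median of 0.34, with 916 called lower and 972 higher. FICD, the enzyme that adds and removes AMP on BiP, was at 1.00, 3.75 and 1.94 CPM in PBS 10, PBS 11 and PBS 12 and at 0.654, 0.649 and 0.841 CPM in METH 1, METH 2 and METH 3. The groups did not overlap, and FICD fell (-1.34 on the log2 scale, standard error 0.443, adjusted p of 0.0438 by limma). FRG2 was at 0.0900, 0.242 and 0 CPM with PBS and at 0.525, 0.473 and 0.421 CPM with METH, and it rose (1.61 on the log2 scale, standard error 0.467, adjusted p of 0.0326 by limma), from few reads. SHCBP1, a gene of dividing cells, fell (-1.66 on the log2 scale, limma adjusted p = 0.00913), while CAMTA1 was at 0.20 (limma adjusted p = 0.419), ZNF143 at 0.41 (limma adjusted p = 0.175) and NUCB1, a calcium-binding protein of the Golgi, at 0.47 (limma adjusted p = 0.206).

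Relative to HSPA5 within the same library, HYOU1 and PDIA4 were higher in every METH library than in every PBS library, as were 49.8% of the genes of the table other than HSPA5. The log2 ratio of HYOU1 to HSPA5 was -0.75, -0.76 and -0.54 in PBS 10, PBS 11 and PBS 12 and -0.38, -0.18 and -0.21 in METH 1, METH 2 and METH 3. That of PDIA4 to HSPA5 was 0.05, -0.01 and 0.18 with PBS and 0.23, 0.41 and 0.27 with METH. For the other 6 members the ratio to HSPA5 overlapped between the groups. These ratios were looked at after the values were seen and were not tested.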
